A study of Mus musculus with 6 samples.

Results

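The genes described here are 42 genes known from dendritic cells, monocytes and macrophages, out of 23841 genes measured in innate lymphocytes sorted from mouse kidney. They were taken by symbol from the deposited count table, as a list put together by cell type with the difference between the sorted populations already known. Differences between the populations among these genes are therefore given as a description, without p-values. Both populations came from naive kidneys of C57BL/6 wild-type mice after enrichment of CD45-bearing leukocytes, and no age, sex or number of mice per pool is given in the labels. Type 1 innate lymphoid cells (ILC1), tissue lymphocytes related to natural killer cells, were sorted as NK1.1+NKp46+CD3- cells with CD49a and with low to intermediate CD49b. Conventional natural killer (cNK) cells, which circulate and kill target cells, were sorted as NK1.1+NKp46+CD3- cells with high CD49b. Each population has 3 sequenced pools, and the gates name no marker of dendritic cells or macrophages by which such cells were removed.

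Dendritic cells and macrophages are the antigen-presenting and phagocytic cells of the kidney interstitium. Conventional dendritic cells type 1 (cDC1) take up dead cells and present their antigens to CD8 T cells, and they carry XCR1, the receptor for the chemokine XCL1 that natural killer cells and ILC1 release. Macrophages and monocytes depend on the receptor for CSF1, digest what they engulf in lysosomes rich in lysozyme and CD68, and in tissue make the complement protein C1q. PU.1, encoded by Spi1, is the transcription factor that drives much of this myeloid gene program.

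The libraries held between 22633440 and 28327265 counts, and levels are given as CPM, counts divided by the TMM-scaled library size, for pools 1, 2 and 3 in that order. The labels were checked on the genes of the sort: Itga1 (CD49a) stood at 185, 117 and 109 CPM in the ILC1 pools and 7.12, 13.6 and 12.7 CPM in the cNK pools, and Itga2 (CD49b) at 24.7, 14.6 and 10.5 CPM in the ILC1 pools and 160.5, 75.97 and 85.3 CPM in the cNK pools. Ncr1 (NKp46), which defines both sorted populations, lay between 1121 and 1858 CPM in every library. Mitochondrial genes took 1.38, 2.25 and 6.53% of counts in ILC1 pools 1 to 3 and 3.15, 12.7 and 10.3% in cNK pools 1 to 3, so that ILC1 pool 3 and cNK pool 2 each had the largest share of their population. In bulk libraries such as these, fewer cells of a type and less RNA per cell cannot be told apart.

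Together the 42 genes held 0.225, 0.202 and 0.521% of all counts in ILC1 pools 1 to 3 and 0.0482, 0.0693 and 0.0552% in cNK pools 1 to 3. The populations did not overlap, and ILC1 pool 3 stood far above the other ILC1 pools. Lyz2 and Cst3 made up between 46.6 and 62.9% of the counts of the list in a library, and without them the list held 0.128 ± 0.0591% in ILC1 (mean ± SD, n = 3) and 0.0264 ± 0.00331% in cNK.

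In the edgeR quasi-likelihood fit over 16144 genes, 26 of the 42 genes were called higher in ILC1 at an adjusted p under 0.05, where 4.07% of all tested genes were, and 0 were called higher in cNK, where 1.69% were. Their median log2 fold change of ILC1 over cNK was 2.69, and that of all tested genes 0.01. All 3 ILC1 libraries lay above all 3 cNK libraries for 29 of the 42 genes, against 14.9% of tested genes, and the other 13 overlapped. All cNK libraries were above all ILC1 libraries for 0 of them, against 9.06% of tested genes. A fit with pool number as a block called 23, where it called 6.86% of all genes higher in ILC1. Since the list was made with this contrast known, these counts say only what the list holds. Leaving out cNK pool 1, 2 or 3 left 15, 16 or 9 called, respectively, and 8 genes were called whichever single library was left out: Xcr1, Wdfy4, Naaa, Flt3, Cd86, Clec12a, Mpeg1 and Cd93. The number of all tested genes called higher in ILC1 also changed with the library left out, over the range given at the end. The lower counts are therefore not read as a trait of the 42 genes. A further limit is the filter on low counts, which asks for 0.389 CPM in 3 libraries: Clec9a, Gpr33, Snx22, Wdfy4, Flt3 and Cd180 reached it in all 3 ILC1 libraries but not in every cNK library, and Cd207 reached it in 2 ILC1 libraries and 1 cNK library.

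**Figure D1:**
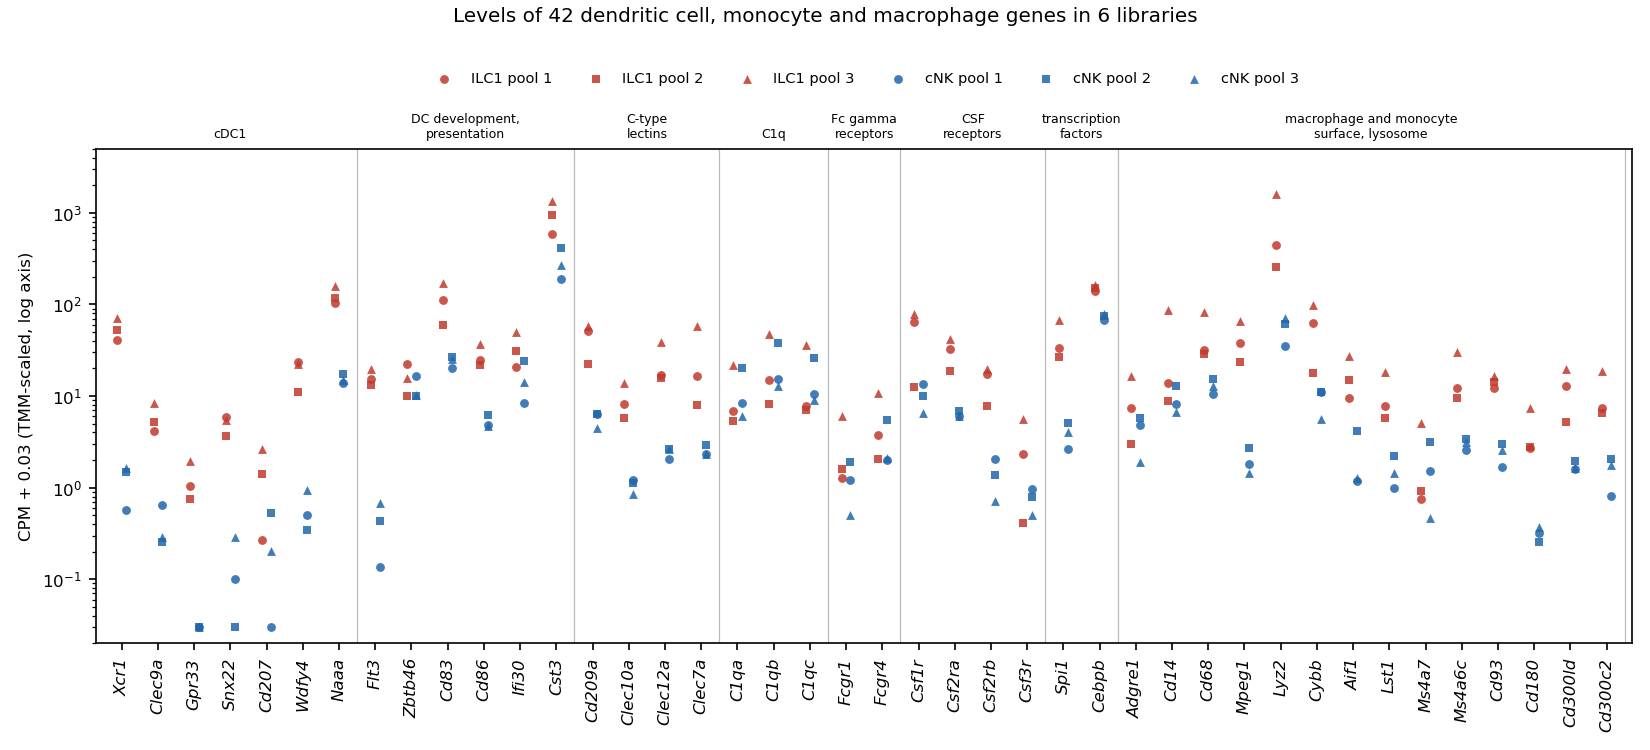
Level of each of the 42 genes in each library, as TMM-scaled CPM + 0.03 on a log axis, with ILC1 in red, cNK in blue and 1 marker shape per pool number. The cDC1 genes except Cd207 stand apart between the populations, while the 3 C1q genes overlap.

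Of the 7 genes that mark cDC1, 6 were called higher in ILC1. The median log2 fold change of the 7 was 5.06, the highest of the 8 groups of the list. That median is the value of Wdfy4. Like Clec9a, Gpr33 and Snx22, Wdfy4 reached the filter in every ILC1 library but not in every cNK library. The ranking of the groups therefore rests partly on very low cNK counts. Xcr1 (chr9:123852315-123862029 on GRCm38, minus strand), which encodes the XCL1 receptor, stood at 40.4, 52.5 and 71.5 CPM in the ILC1 pools and 0.539, 1.45 and 1.59 CPM in the cNK pools. Every ILC1 library was thus above every cNK library by a wide margin, with a log2 fold change of 5.53 ± 0.48 (SE). Clec9a, whose product recognises the actin exposed by dead cells, was measured at 4.13, 5.14 and 8.34 CPM in the ILC1 pools and 0.611, 0.227 and 0.259 CPM in the cNK pools, again without overlap (3.97 ± 0.54). Wdfy4, which cDC1 need to present antigens of engulfed cells, had 23.4, 11.1 and 22.1 CPM in the ILC1 pools and 0.467, 0.317 and 0.905 CPM in the cNK pools. Its ILC1 values were lowest in pool 2, yet all lay more than 10 CPM above the highest cNK value (5.06 ± 0.52). Snx22, a sorting nexin, had 148, 106 and 151 counts in the ILC1 pools and 2, 0 and 6 in the cNK pools.

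Gpr33, a chemoattractant-type receptor, had 25, 21 and 54 counts in ILC1 and none in any cNK library. Taking 3 counts over the cNK group as the limit that a count of 0 allows, its mean of 1.22 CPM in ILC1 was 29.7 times that limit. This ratio leaves out the spread of the ILC1 pools, which ranged from 0.724 to 1.92 CPM. Naaa, a lysosomal hydrolase of lipid amides, was the most abundant of the cDC1 genes at 104, 118 and 159.9 CPM in the ILC1 pools and 14.02, 17.2 and 14.95 CPM in the cNK pools, and unlike the others it kept a clear level in cNK (3.05 ± 0.23). Cd207, which encodes langerin, was low, with 6, 40 and 74 counts in ILC1 and 0, 11 and 4 in cNK. Its CPM varied between ILC1 pools by a factor of 10.96. It overlapped between the populations and was the cDC1 gene that was not called. The ratio of Xcr1 to Clec9a was 9.77, 10.2 and 8.58 in ILC1 pools 1 to 3 and 0.882, 6.40 and 6.17 in cNK pools 1 to 3, where few counts lie behind both genes.

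Among the 6 genes of dendritic cell development and antigen presentation, 3 were called. Flt3, the receptor for the growth factor FLT3 ligand that dendritic cells need, stood at 15.2, 13.2 and 19.9 CPM in the ILC1 pools and 0.108, 0.408 and 0.646 CPM in the cNK pools, a log2 fold change of 5.38 ± 0.59. Its cNK level rested on 3, 9 and 15 counts. Cd86, which encodes a costimulatory ligand for CD28, had 24.95, 21.7 and 36.9 CPM in the ILC1 pools and 4.74, 6.25 and 4.65 CPM in the cNK pools and Cd83, which marks mature dendritic cells and is also made by activated lymphocytes, 111, 59.2 and 172 CPM in the ILC1 pools and 20.3, 26.6 and 25.04 CPM in the cNK pools. Both were without overlap, but Cd83 varied within ILC1 by a factor of 2.91 and Cd86 by 1.70. Cd83 was called in 2 of the 6 fits that left out a library.

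Zbtb46, the transcription factor by which classical dendritic cells are recognised, did not follow the other genes of its group. It stood at 22.3, 10.1 and 15.5 CPM in the ILC1 pools and 16.4, 9.92 and 10.3 CPM in the cNK pools, the ranges overlapped, and its log2 fold change was 0.38 ± 0.35. Ifi30, a lysosomal thiol reductase, also overlapped, with 20.7, 30.9 and 50.1 CPM in the ILC1 pools and 8.30, 24.01 and 14.4 CPM in the cNK pools. Cst3, the secreted protease inhibitor cystatin C, was the most abundant gene of the list per length in both populations, at 585, 954 and 1328 CPM in the ILC1 pools and 187, 408 and 269.9 CPM in the cNK pools. It had no overlap (1.73 ± 0.40) and lay close to the threshold. It was not called in the edgeR fit described above, but was called by edgeR with no filter on low counts, with the pool block, without ILC1 pool 1 and with ILC1 pool 3 and cNK pool 2 left out together. The DESeq2 Wald test also called it, among 30 of the 42 genes, where it called 7.16% of all genes higher in ILC1.

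**Figure D2:**
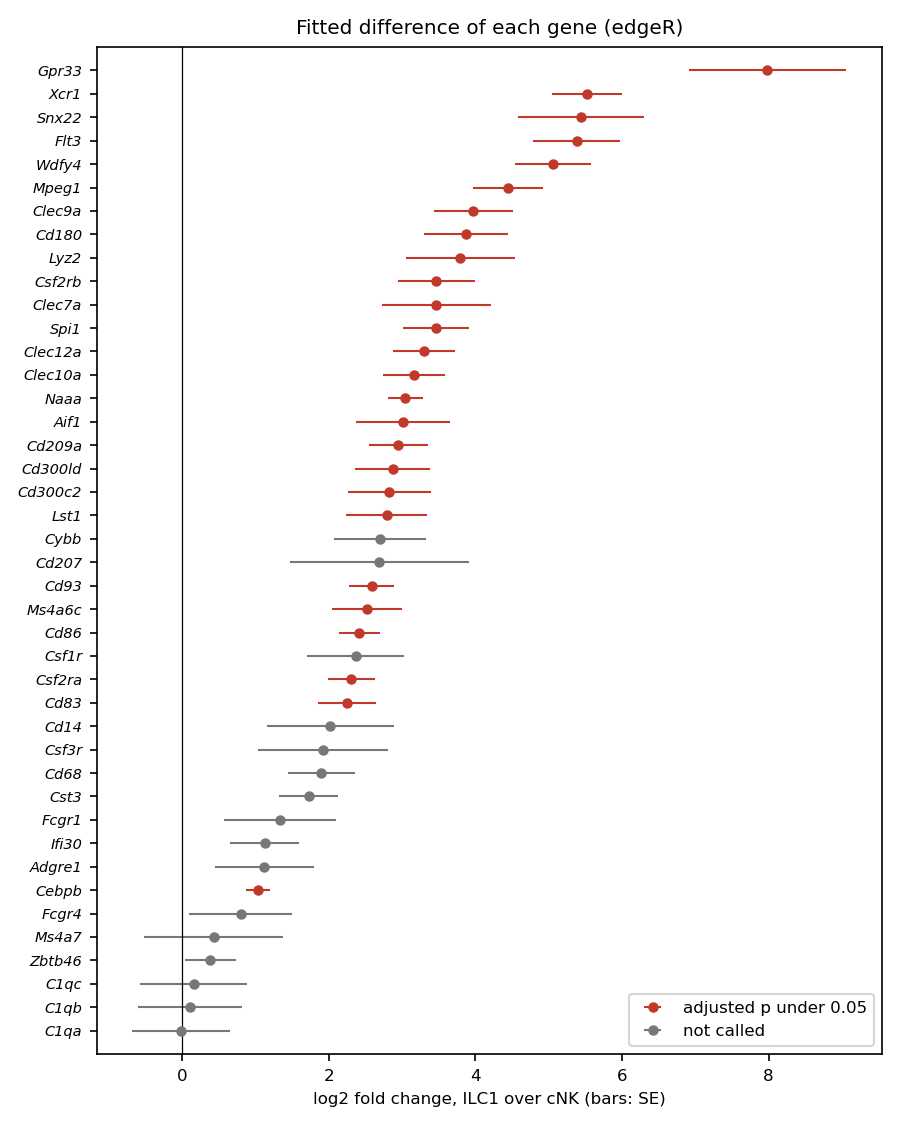
Log2 fold change of ILC1 over cNK for each of the 42 genes from the edgeR fit, with bars for the SE, red where the adjusted p was under 0.05 and grey where it was not. The 3 C1q genes lie at the bottom near 0, and the fitted value of Gpr33 at the top depends on the prior count because cNK had no counts.

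All 4 genes grouped as C-type lectin receptors were called higher in ILC1, and their summed level was 92.9, 51.99 and 169 CPM in ILC1 pools 1 to 3 against 11.8, 12.9 and 10.2 CPM in cNK. Of the lectins placed above with the cDC1 genes, Clec9a was called and Cd207 was not. Cd209a, a relative of human DC-SIGN, stood at 51.3, 22.4 and 57.99 CPM in the ILC1 pools and 6.29, 6.34 and 4.44 CPM in the cNK pools (2.95 ± 0.40). Clec12a, an inhibitory receptor for uric acid crystals, had 16.8, 15.9 and 38.4 CPM in the ILC1 pools and 2.01, 2.58 and 2.63 CPM in the cNK pools (3.30 ± 0.42). In cNK both genes varied little between pools, and in ILC1 pool 3 was the highest library for each. Clec10a, a galactose-binding lectin, had the lowest levels of the group, 9.28 ± 4.22 CPM in ILC1 (mean ± SD, n = 3) and 1.03 ± 0.190 CPM in cNK. Clec7a, which encodes the beta-glucan receptor dectin-1, depended most on a single library, with 16.6, 7.96 and 58.3 CPM in the ILC1 pools and 2.30, 2.90 and 2.33 CPM in the cNK pools. Its log2 fold change was 3.47 with all libraries and 2.29 without ILC1 pool 3, where it was still called. Its call was lost with RLE or upper-quartile scaling, with no filter, with the pool block, and without ILC1 pool 1 or any single cNK pool.

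Of the 4 receptor genes for colony-stimulating factors, 2 were called higher in ILC1. The GM-CSF receptor chain Csf2ra stood at 32.7, 18.9 and 41.9 CPM in the ILC1 pools and 6.07, 6.84 and 6.03 CPM in the cNK pools, and Csf2rb, the chain that GM-CSF, IL-3 and IL-5 receptors share, at 17.6, 7.79 and 19.8 CPM in the ILC1 pools and 2.01, 1.36 and 0.690 CPM in the cNK pools. Neither overlapped (2.30 ± 0.32 and 3.47 ± 0.53), and the ratio of Csf2rb to Csf2ra was 0.537, 0.412 and 0.473 in ILC1 and 0.331, 0.199 and 0.114 in cNK. Csf2rb has a near-identical neighbour, Csf2rb2, at 1.76, 1.48 and 2.07 CPM in ILC1 and 0.683, 0.181 and 0.129 CPM in cNK, so the split of reads between both is uncertain.

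Csf1r, the receptor on which macrophages and monocytes depend, had 63.7, 12.4 and 78.1 CPM in the ILC1 pools and 13.6, 10.01 and 6.42 CPM in the cNK pools. ILC1 pools 1 and 3 were high, whereas pool 2 lay below cNK pool 1, so that the groups overlapped and edgeR did not call the gene with all libraries (2.36 ± 0.66). DESeq2 called it, as did edgeR without ILC1 pool 2. Csf3r, the G-CSF receptor of neutrophils, had 57, 11 and 157 counts in ILC1 and 26, 17 and 11 in cNK, and as CPM ILC1 pool 2, at 0.379, was the lowest library, followed by cNK pool 3 at 0.474.

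Of the ligands of these receptors and of their partner chains, 11 genes were listed, 7 were tested, 3 were called higher in ILC1 and 0 in cNK. Xcl1, the ligand of XCR1, stood at 501, 1083 and 719 CPM in the ILC1 pools and 108, 216 and 239 CPM in the cNK pools (log2 fold change 2.03 ± 0.40, edgeR adjusted p = 0.0329), so ligand and receptor were both higher in the ILC1 libraries. Csf1, a ligand of CSF1R, and Csf2, which encodes GM-CSF, were low but also called, with log2 fold changes of 2.06 ± 0.43 and 1.55 ± 0.35 (edgeR adjusted p = 0.0381 and 0.0496). Over all settings tried, the adjusted p ranged from 2.93e-05 to 0.104 for Xcl1, 2.18e-04 to 0.149 for Csf1 and 0.00108 to 0.179 for Csf2, and none of the 3 was called without ILC1 pool 2 or without cNK pool 3. Flt3l, the FLT3 ligand, had 11.03, 12.1 and 9.84 CPM in ILC1 and 9.92, 8.52 and 10.9 CPM in cNK (0.16 ± 0.21, not called). Il34, the other ligand of CSF1R, had 1.003, 0.0345 and 2.53 CPM in ILC1 and 0.791, 2.17 and 2.15 CPM in cNK, Il3ra had 5.25, 5.69 and 5.99 and 3.27, 3.31 and 4.27 CPM, and Il5ra was below the filter. The ligand genes Csf3, Il3 and Il5 were not analysed here.

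The 2 genes grouped as transcription factors were both called higher in ILC1, whereas Zbtb46, described above with the dendritic cell genes, was not. Spi1, which encodes PU.1, stood at 33.3, 26.9 and 67.3 CPM in the ILC1 pools and 2.59, 5.03 and 4.01 CPM in the cNK pools (3.46 ± 0.45). Cebpb, a factor of monocytes that many activated cells also use, had 140.3, 152 and 162 CPM in the ILC1 pools and 67.5, 74.2 and 79.3 CPM in the cNK pools. Cebpb was the steadiest gene of the list between ILC1 pools, varying by a factor of 1.15, and its log2 fold change of 1.04 ± 0.17 was the smallest among those called. Spi1 was not called without cNK pool 3, nor Cebpb without cNK pool 2 or cNK pool 3. Cebpb was also not called without both ILC1 pool 3 and cNK pool 2.

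PU.1 binds sites with the core letters GAGGAA, so the 250 bases before the transcription start were searched for them on both strands, in the RefSeq promoters of GRCm38.p6. 31 of the 42 genes had an entry, with 35 promoters, of which 15 held the motif, beside 23.3% of all 32851 promoters. Among promoters of genes called higher in ILC1, 7 of 22 held it, and among those of the genes not called 8 of 13. The sequences that bear on this are those of 3 called genes with the motif (Csf2ra, Clec12a and Clec7a), C1qb, which has it close to the start and was not called, and Xcr1, which separated widely and has none in this window. Each is printed 5′ to 3′ on the strand of the gene, ending at the base before the start, with GAGGAA or its reverse complement in capitals. They are read from chr19:61228419-61228668 (minus strand), chr6:129349994-129350243 (plus strand), chr6:129472780-129473029 (minus strand), chr4:136886201-136886450 (minus strand) and chr9:123862030-123862279 (minus strand).
Csf2ra: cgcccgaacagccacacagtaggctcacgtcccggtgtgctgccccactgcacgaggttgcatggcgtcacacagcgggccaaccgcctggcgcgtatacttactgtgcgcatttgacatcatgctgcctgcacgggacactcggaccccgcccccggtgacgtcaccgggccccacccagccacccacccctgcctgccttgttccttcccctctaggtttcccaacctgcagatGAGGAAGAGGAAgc
Clec12a: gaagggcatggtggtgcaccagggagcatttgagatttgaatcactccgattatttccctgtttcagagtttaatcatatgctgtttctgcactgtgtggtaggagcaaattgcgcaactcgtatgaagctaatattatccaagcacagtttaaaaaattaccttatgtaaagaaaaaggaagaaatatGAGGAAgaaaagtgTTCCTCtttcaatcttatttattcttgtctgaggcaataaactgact
Clec7a: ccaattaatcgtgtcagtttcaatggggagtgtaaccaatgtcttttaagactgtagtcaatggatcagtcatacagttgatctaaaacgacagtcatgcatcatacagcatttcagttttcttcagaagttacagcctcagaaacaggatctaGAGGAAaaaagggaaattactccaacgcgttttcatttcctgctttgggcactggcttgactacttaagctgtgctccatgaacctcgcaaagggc
C1qb: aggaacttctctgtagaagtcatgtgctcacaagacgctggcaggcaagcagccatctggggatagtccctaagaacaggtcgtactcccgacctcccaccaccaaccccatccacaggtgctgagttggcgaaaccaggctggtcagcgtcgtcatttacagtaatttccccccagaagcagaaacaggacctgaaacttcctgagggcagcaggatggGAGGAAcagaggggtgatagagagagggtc
Xcr1: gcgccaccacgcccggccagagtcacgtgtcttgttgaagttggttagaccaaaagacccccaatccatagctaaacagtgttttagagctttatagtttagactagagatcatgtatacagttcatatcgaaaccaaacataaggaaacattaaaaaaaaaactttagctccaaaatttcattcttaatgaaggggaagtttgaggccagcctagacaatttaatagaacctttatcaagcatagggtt
The motif in Csf2ra lies 14 and 8 bases before the start, that in Clec12a 61 and 47 bases, that in Clec7a 96 bases (90 from a further start of the gene) and that in C1qb 30 bases. A match is a run of letters and not a measured binding site.

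Of the 14 surface and lysosome genes of macrophages and monocytes, 9 were called higher in ILC1 and 11 had no overlap. Their summed level was 667, 399 and 2096 CPM in ILC1 pools 1 to 3 against 81.5, 128 and 112 CPM in cNK. Lyz2, which encodes lysozyme of macrophages and neutrophils, dominated this sum with 447, 258 and 1602 CPM in the ILC1 pools and 34.8, 60.9 and 70.9 CPM in the cNK pools. It had no overlap, but ILC1 pool 3 alone was 6.22 times pool 2, and the log2 fold change was 3.80 ± 0.75 with all libraries and 2.66 without ILC1 pool 3. Mpeg1, the pore-forming perforin-2 of phagocytes, separated more evenly, at 38.3, 23.7 and 65.7 CPM in the ILC1 pools and 1.80, 2.67 and 1.42 CPM in the cNK pools (4.44 ± 0.48). Cd93, a surface glycoprotein of monocytes and endothelium, had 12.1, 14.2 and 16.6 CPM in the ILC1 pools and 1.65, 2.94 and 2.54 CPM in the cNK pools, the narrowest ILC1 range of these 14 genes (2.58 ± 0.30). Cd180, a Toll-like receptor relative known best from B cells, was low, with 66, 80 and 206 counts in ILC1 and 8, 5 and 8 in cNK.

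The immunoglobulin-like receptors Cd300ld and Cd300c2, 6798 bp apart on chromosome 11, had similar levels, 12.5 ± 7.20 and 10.7 ± 6.73 CPM in ILC1 and 1.71 ± 0.208 and 1.52 ± 0.649 CPM in cNK. Aif1 and Lst1, 9026 bp apart on chromosome 17, had log2 fold changes of 3.01 ± 0.64 and 2.79 ± 0.55. Of the tetraspan genes on chromosome 19, Ms4a6c was called at 12.3, 9.48 and 29.9 CPM in the ILC1 pools and 2.52, 3.40 and 3.10 CPM in the cNK pools, and Ms4a7, a marker of tissue macrophages, was not, at 0.722, 0.896 and 5.10 CPM in the ILC1 pools and 1.47, 3.13 and 0.431 CPM in the cNK pools. The calls of Lyz2, Aif1 and Cd300c2 held in 2 of the 6 fits that left out a library, and those of Lst1, Ms4a6c, Cd180 and Cd300ld in 3.

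Adgre1, Cd14, Cd68 and Cybb were among the genes of this group not called with all libraries, whereas Lyz2, Mpeg1 and Aif1 were called. Adgre1, which encodes F4/80, stood at 7.34, 2.96 and 16.6 CPM in the ILC1 pools and 4.78, 5.75 and 1.90 CPM in the cNK pools, and ILC1 pool 2 lay below cNK pools 1 and 2. Cd14, the co-receptor for lipopolysaccharide, had 13.999, 8.76 and 87.9 CPM in the ILC1 pools and 8.16, 12.7 and 6.64 CPM in the cNK pools. ILC1 pool 3 was 10.03 times pool 2 there, and without pool 3 the log2 fold change was 0.31 in place of 2.02. Cd68, a lysosomal glycoprotein, and Cybb, the catalytic chain of the phagocyte NADPH oxidase, had no overlap between the populations but missed the threshold (1.90 ± 0.45 and 2.70 ± 0.62). Cd68 had 32.1, 28.4 and 83.4 CPM in ILC1 and 10.6, 15.4 and 12.8 CPM in cNK, and Cybb 63.02, 17.96 and 97.5 CPM and 10.998, 11.1 and 5.56 CPM. DESeq2 called both, and edgeR called Cd68 without ILC1 pool 3 and Cybb without ILC1 pool 2.

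The 3 C1q genes, which encode the chains of the complement protein that binds immune complexes, were not called, and their levels overlapped between the populations. C1qa stood at 6.90, 5.27 and 21.9 CPM in the ILC1 pools and 8.27, 20.3 and 6.03 CPM in the cNK pools, and C1qb at 15.04, 8.07 and 47.8 CPM in the ILC1 pools and 15.3, 38.01 and 12.9 CPM in the cNK pools. C1qc, the third chain, had 7.78, 7.07 and 35.7 CPM in the ILC1 pools and 10.4, 26.2 and 9.01 CPM in the cNK pools. In each case ILC1 pool 3 and cNK pool 2 were the high libraries of their population. The log2 fold changes were -0.01 ± 0.67, 0.10 ± 0.71 and 0.15 ± 0.73, and without ILC1 pool 3 they were -0.92, -0.94 and -1.04. Their sign also turned when other single libraries were left out. The genes are neighbours on chromosome 4, with gaps of 3616 and 2851 bp between them, and the ratio of C1qb to C1qa was 2.18, 1.53 and 2.18 in ILC1 and 1.86, 1.88 and 2.14 in cNK. The ratio of Lyz2 to C1qb, in contrast, was 29.7, 31.9 and 33.5 in ILC1 and 2.27, 1.60 and 5.48 in cNK.

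Neither of the Fc gamma receptors was called. Fcgr4, an activating receptor for IgG, stood at 3.77, 2.03 and 10.7 CPM in the ILC1 pools and 1.98, 5.48 and 2.07 CPM in the cNK pools, and Fcgr1, the high-affinity IgG receptor, at 1.24, 1.59 and 5.99 CPM in the ILC1 pools and 1.19, 1.86 and 0.474 CPM in the cNK pools. Both overlapped (0.80 ± 0.70 and 1.33 ± 0.76), and for both the highest ILC1 library was pool 3 and the highest cNK library pool 2. Without ILC1 pool 3 the log2 fold change of Fcgr4 was -0.13, and that of Ms4a7 -1.05 in place of 0.43. Kidney epithelial genes also peaked in these libraries, with a summed level of 758, 232 and 2204 CPM in ILC1 pools 1 to 3 and 805, 3263 and 2711 CPM in cNK, though cNK pool 3 was nearly as high for them as pool 2 and was the lowest cNK library for the C1q sum. The part of this epithelial RNA in the C1q and Fc receptor levels was not tested. None of 9 epithelial genes was called with all libraries, DESeq2 called 2 higher in cNK, and leaving out cNK pool 1 gave 4 edgeR calls in that direction.

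**Figure D3:**
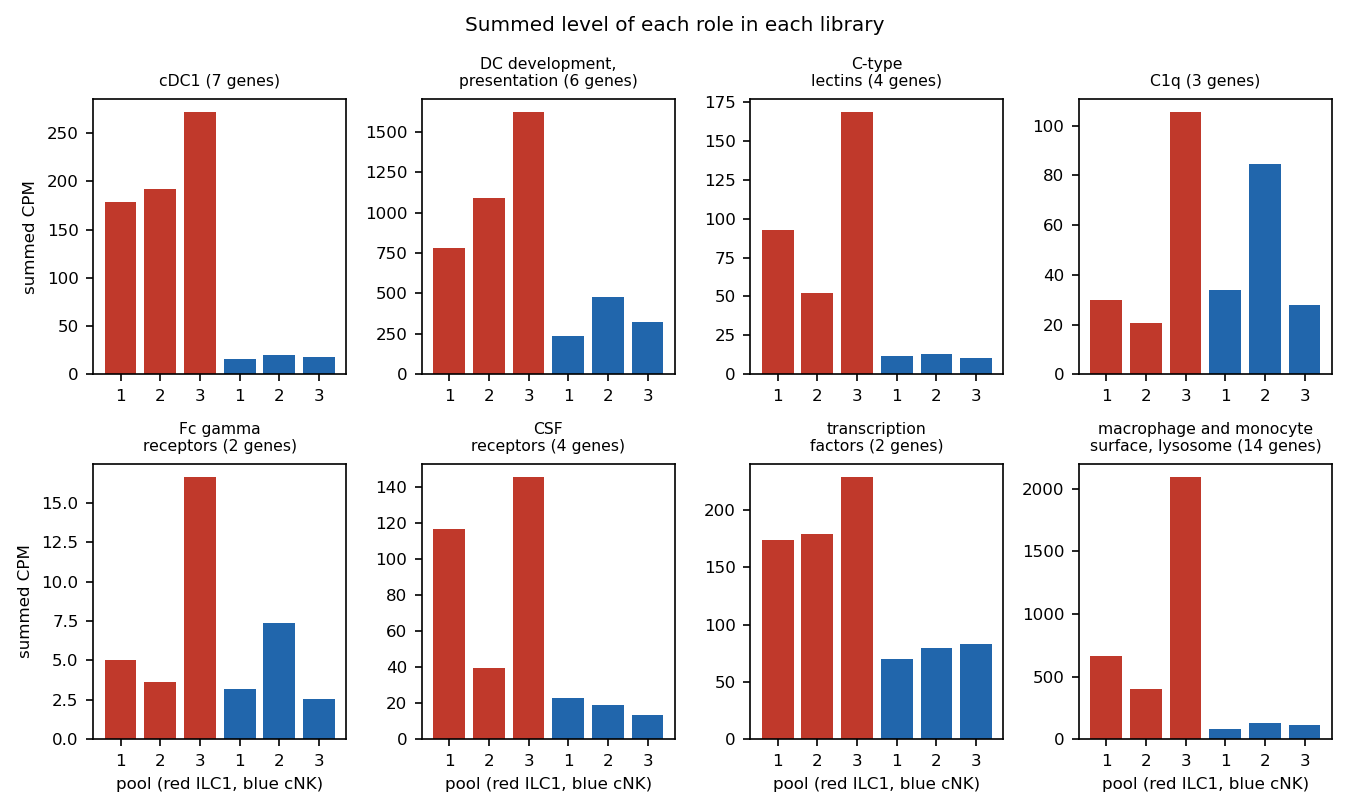
Summed CPM of the genes of each role in the 6 libraries, ILC1 pools in red and cNK pools in blue, each panel with its own axis from 0. The cDC1 sum, of which Naaa makes up most, is between 179 and 272 CPM in ILC1 and at most 19.7 CPM in cNK. C1q peaks in ILC1 pool 3 and cNK pool 2.

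Within ILC1 the groups of genes did not vary together by the same factor. Pool 3 was the highest ILC1 library for 39 of the 42 genes, where it was for 29.2% of tested genes, and pool 2 the lowest for 30, where it was for 24.5%. The ratio of pool 3 to pool 2 had a median of 1.62 over the cDC1 genes, 1.58 over those of dendritic cell development and presentation, 2.51 over the lectins, 3.15 over the macrophage and monocyte genes and 5.05 over C1q. Csf3r and Cd14 had the largest ratios, 14.8 and 10.03, and Cebpb and Cd93 the smallest, 1.06 and 1.17. These ratios depend on the pair of pools, since pool 1 was the lowest ILC1 library for 4 of the 7 cDC1 genes. For summed levels, pool 3 was 1.52 times pool 1 over the cDC1 genes and 2.08 times over dendritic cell development and presentation. The same ratio was 1.81 over the lectins, 3.14 over the macrophage and monocyte genes and 3.55 over C1q. For Cd207 alone it was 10.96. Summed, the cDC1 genes were 12.004 times higher in ILC1 than in cNK (214 ± 50.3 against 17.9 ± 2.02 CPM, SD, n = 3), with an SD in ILC1 of well under the mean. Naaa alone had a mean of 127 CPM in ILC1 and 15.4 CPM in cNK, so the cDC1 sums are mostly those of 1 gene. The macrophage and monocyte genes were 9.84 times higher (1054 ± 912 against 107 ± 23.7 CPM), with an SD in ILC1 nearly as large as the mean. Without ILC1 pool 3 that fold was 4.98, and that of the cDC1 genes 10.4. Among cNK libraries, pool 2 was the highest for 27 of the 42 genes, where it was for 38.7% of tested genes.

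**Figure D4:**
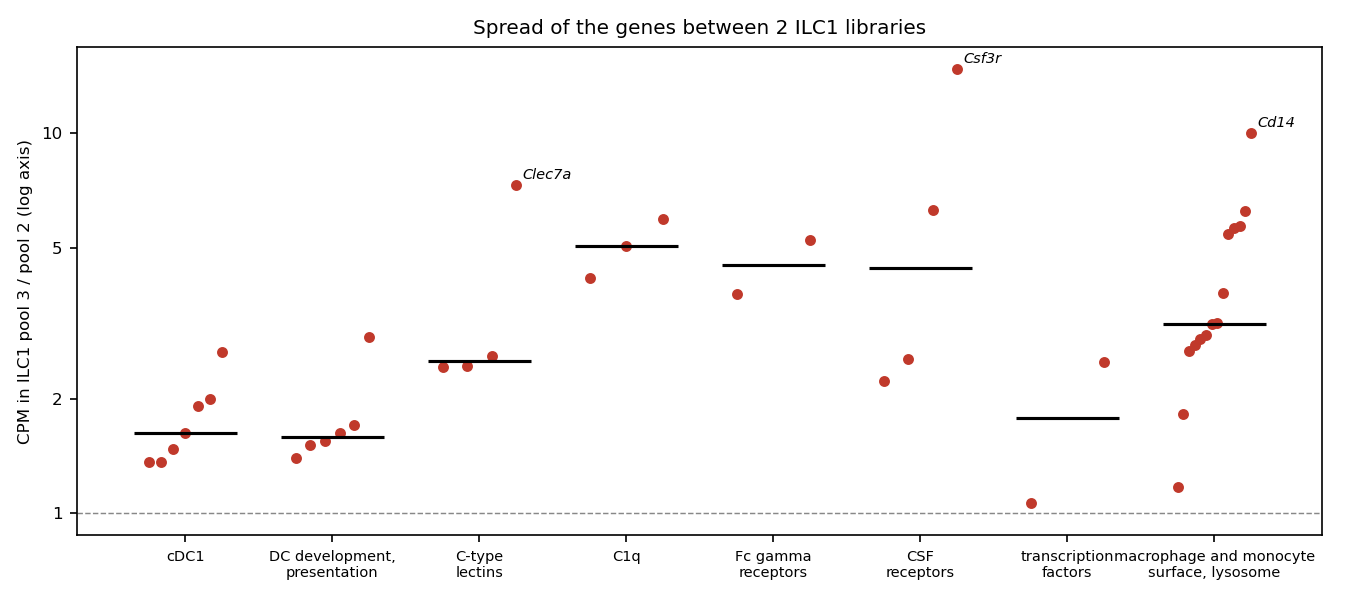
Ratio of the CPM in ILC1 pool 3 to that in ILC1 pool 2 for each gene (points, log axis), grouped by role, with the median of the role as a line and equality as a dashed line. The cDC1 genes sit between 1.36 and 2.66, and Clec7a, Csf3r and Cd14 are named as the genes above 7.

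Levels were compared between genes after division by exon length. In ILC1 the order was led by Cst3 at 755 CPM per kb and Lyz2 at 584, followed by Cebpb at 101, Cd83 at 44.4 and Cd68 at 38.2 CPM per kb. In cNK it was led by Cst3 at 228, Cebpb at 48.98, Lyz2 at 42.2 and C1qb at 20.3 CPM per kb. Xcr1 ranked 13 of 42 in ILC1 at 12.3 CPM per kb and 33 in cNK at 0.268. Neighbours in this order, such as Cd83 and Cd68 in ILC1, differed by less than the SD between pools, which was 56.6 CPM for Cd83 at a mean of 114 CPM. Of the 42 genes, 31 reached a mean of 10 CPM in ILC1 and 12 in cNK.

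Genes of the same cell types outside the list were examined next, again with the contrast known. Of 11 other cDC1 genes, 6 were called higher in ILC1 and 1 in cNK (median log2 fold change 1.75). Irf8, a factor that cDC1 require and NK cells also express, was the one higher in cNK (1995 ± 269 CPM there against 379.6 ± 46.2 CPM in ILC1, mean ± SD, n = 3, a log2 difference of -2.40 ± 0.21, edgeR adjusted p = 0.00149). Id2, the other abundant gene of that group and a factor of all innate lymphoid cells, was not called (0.09 ± 0.31). Also not called were Itgae and Plpp1, which overlapped (0.65 ± 0.33 and 0.12 ± 0.91), and Cadm1, which did not overlap (2.36 ± 0.54). Rab7b, a small GTPase of endosomes, and Tlr11, a receptor for protozoan profilin, were picked out from the called genes with their values known. Rab7b had 24.6, 28.4 and 53.9 CPM in the ILC1 pools and 0.719, 3.04 and 1.42 CPM in the cNK pools, and Tlr11 7.14, 5.96 and 11.01 CPM in the ILC1 pools and 0, 0.272 and 0.0862 CPM in the cNK pools, both without overlap. The 6 calls fell to 4 without ILC1 pool 2 and without cNK pool 1, to 3 without cNK pool 2 and to 1 without cNK pool 3.

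Of 7 tested genes of dendritic cells type 2, edgeR called 0 and DESeq2 2 higher in ILC1, and edgeR called 1 without ILC1 pool 2. Itgax (CD11c), which NK cells also carry, and Sirpa, which encodes the receptor for CD47, were the most abundant there, with log2 fold changes of 0.41 ± 0.40 and 2.29 ± 0.64. Of 9 genes of mature dendritic cells, edgeR called 0 and DESeq2 6, and leaving out ILC1 pool 3 or cNK pool 2 gave 2 edgeR calls, ILC1 pool 2 gave 1, both ILC1 pool 3 and cNK pool 2 gave 4, and the pool block 1. Relb and Socs2 led them by level (0.15 ± 0.23 and 1.41 ± 0.37). The median log2 fold change was 2.64 over the tested genes of mature dendritic cells and 1.46 over those of dendritic cells type 2. Of 9 plasmacytoid dendritic cell genes, Pacsin1 and Ccr9 were called higher in ILC1 (edgeR adjusted p = 0.000568 and 0.0393), while Siglech, a defining gene named with its values known, stayed at 2.01, 1.24 and 2.25 CPM in ILC1 and 1.73, 1.36 and 0.129 CPM in cNK. Ccr9 was not called without ILC1 pool 1, ILC1 pool 2, cNK pool 2 or cNK pool 3, and 2 genes of the group were higher in cNK without ILC1 pool 3. Klk1, also a gene of kidney tubules, and Bst2 led the group by level (-1.84 ± 0.98 and 0.44 ± 0.26).

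Of 11 tested monocyte genes outside the list, Treml4, F13a1 and Ifitm6 were called higher in ILC1 and Ly6c2, which NK cells also express, in cNK. The median log2 fold change was 3.49 over these monocyte genes and 0.96 over the tested macrophage genes given below. Treml4, known from non-classical monocytes, had 14.3, 7.52 and 23.2 CPM in the ILC1 pools and 0.431, 0.498 and 0.646 CPM in the cNK pools (edgeR adjusted p = 0.00325, called under every setting tried). The count of 3 was 5 by DESeq2 and 1 without ILC1 pool 1 or any single cNK pool, and Ly6c2 was not called without ILC1 pool 1, cNK pool 2 or cNK pool 3. Ccr2 was abundant in both populations (0.39 ± 0.21, not called). Of 14 tested macrophage genes, Maf and Axl were called higher in ILC1 (1.99 ± 0.28 and 1.98 ± 0.35, edgeR adjusted p = 0.00934 and 0.0206), with Axl not called without ILC1 pool 1 or any single cNK pool, and 2 genes were higher in cNK without ILC1 pool 3. The defining macrophage genes Mertk, Cd163 and Timd4, named with their values known, were at or below 5.89 CPM in all 6 libraries. They were not called with all libraries and differed in direction. Timd4 was higher in ILC1 and Cd163 in cNK, both without overlap (4.70 ± 1.22 and -0.76 ± 0.34), and Mertk overlapped (-1.27 ± 1.04). Apoe stood at 38.99, 30.3 and 215 CPM in the ILC1 pools and 30.1, 74.8 and 36.5 CPM in the cNK pools. Vsig4, Lyve1, Folr2 and Cd5l were not analysed here.

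MHC class II genes, through which these cells present antigen, moved with the list: all 8 tested were called higher in ILC1 (3 without cNK pool 3, 6 without cNK pool 1), and their summed level was 4012, 3755 and 7141 CPM in ILC1 pools 1 to 3 and 526, 1040.0 and 597 CPM in cNK. The order of the libraries was the one seen for Lyz2 and Mpeg1 within ILC1, with pool 3 highest and pool 2 lowest. Of 6 genes that myeloid and NK cells share, 0 were called higher in ILC1: Itgam was called higher in cNK (-3.62 ± 0.59, edgeR adjusted p = 0.0154, not called without cNK pool 3) and Tyrobp and Fcer1g, which encode signalling adaptors, were not called in that fit (-1.06 ± 0.29 and -0.58 ± 0.24). DESeq2 and the fit with the pool block each called 3 of these 6 genes higher in cNK, and edgeR without ILC1 pool 2 called 2. Of 11 other myeloid transcription factors, Maf and Batf3 were called higher in ILC1 and Irf8 and Zeb2 in cNK. The call of Batf3 was lost whichever single library was left out, and that of Zeb2 without ILC1 pool 1, ILC1 pool 2, cNK pool 1 or cNK pool 3.

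Markers of further cell types were checked beside the list. Neutrophil genes summed to 0.963, 0.517 and 16.4 CPM in ILC1 pools 1 to 3 and 3.59, 14.5 and 62.96 CPM in cNK, B cell genes to between 5.43 and 13.6 CPM in any library, and mast cell and basophil genes to at most 6.58 CPM. None of these 3 lists had a call in the edgeR fit of all libraries at its default settings. A B cell gene was called higher in ILC1 by DESeq2, with the pool block and with the filter of at least 1 CPM, DESeq2 called 1 mast cell gene higher in cNK, and 3 neutrophil genes were called higher in cNK without ILC1 pool 3 (1 where cNK pool 2 was also left out). Of 8 T cell genes, Cd3g and Cd28 were called higher in ILC1 (2.49 ± 0.28 and 1.09 ± 0.20, edgeR adjusted p = 0.00384 and 0.0232), while the call of Cd28 held in a leave-one-out fit only where ILC1 pool 3 was the library left out, and Cd3e, named with its values known, stayed at or below 4.38 CPM. Endothelial genes summed to between 59.8 and 109.8 CPM over the libraries, with no call among 7 and 1 under the pool block. The part that cells of any of these types had in the levels of the 42 genes was not tested.

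**Figure D5:**
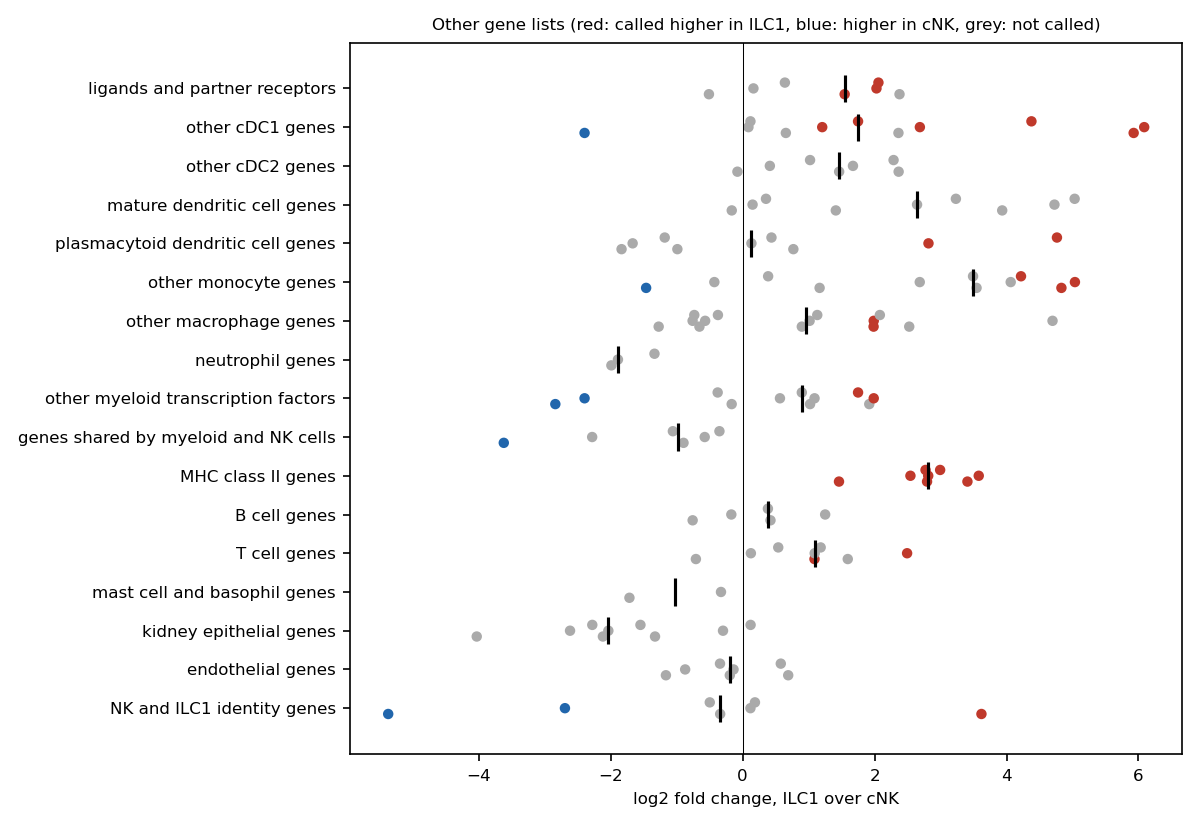
Log2 fold change of ILC1 over cNK for the tested genes of 17 lists outside the 42 genes (points), with the median of each list as a black line. All 8 MHC class II genes are red, and among the other cDC1 genes 6 are red and Irf8 is blue.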

How the data were processed

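Extracted RNA was sequenced in 6 libraries, 3 ILC1 and 3 cNK pools, grouped by the sorted cell type that the labels give. Raw, whole-number counts for each gene were deposited by the authors, and 2 columns of averaged signal that equal the mean count of each population for all 23841 genes (within 1e-06). Per the submitters' processing notes, the tools were STAR 2.6.1, Trimmomatic 0.38, DESeq2 1.30.0, DESeq and R 4.03, with GRCm38. Which program counted the reads, on which annotation and with what strand setting was not given in the sources used here, so reads of near-identical or overlapping genes are uncertain. A trailing line without a gene identifier and without counts per library was left out. Genes without a symbol held between 0.413 and 0.836% of counts.

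Counts were fitted with edgeR 4.0.16 in R 4.3.3 (TMM scaling, filterByExpr by group, robust quasi-likelihood, Benjamini-Hochberg adjustment over 16144 genes, threshold 0.05), with the SE taken from the F statistic. The fit was tested on simulated data. The alternatives were other scaling factors, the DESeq2 1.42.0 Wald test, other filters, the pool number as a block and leaving out libraries. Exon lengths and positions come from GENCODE M21, which matched 23836 identifiers, and promoters from RefSeq. The members, lists and rules (all 42 genes, all ligands and partner receptors, and the most abundant tested genes or the few called ones of each other list) were chosen with earlier results of these data known. Since the labels leave the animals behind each pool unnamed, p-values measure only the spread between these pools, which may be technical. 1 count was worth between 0.0353 and 0.0442 CPM, and count intervals would cover counting error only.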

Additional observations from a re-analysis of the deposited data

How the results depend on the processing

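The number of the 42 genes called higher in ILC1 was 26, and 22 to 30 under other scaling factors, filters, the DESeq2 Wald test or the pool block. Leaving out 1 library gave 9 to 27, the number higher in cNK stayed 0 in every fit, and the median log2 fold change lay between 2.15 and 2.96. Over all genes, leaving out 1 library gave 214 to 695 genes higher in ILC1 and 93 to 672 higher in cNK. The DESeq2 Wald test called 1153 and 693 genes and the fit with pool number as a replicate block 1107 and 675, while without both ILC1 pool 3 and cNK pool 2 there were 431 higher in cNK. The cause was not tested. Of the fits of single members under the alternatives, 474 stayed on the same side of the threshold, 57 lost a call and 12 gained one. No called gene turned its direction. The 474 include genes not called that did turn. C1qb, C1qc, Fcgr4 and Ms4a7 turned without ILC1 pool 3, and the 3 C1q genes and Ms4a7 in other fits as well. The block took the count of members called to 23. Over genes, the deviations of pools of the same number from their group means correlated at 0.525, -0.128 and 0.0592. The highest correlation, 0.591, was that of ILC1 pool 3 with cNK pool 2. Not every library thus correlated best with its own number, and the numbers were not taken to pair the pools. Leaving mitochondrial genes out of the total moved the share of counts held by the 42 genes by less than the SD between pools. With 3 pools a group, genes with few counts in cNK carry wide errors, with an SE of the log2 fold change of 0.86 for Snx22 and 1.22 for Cd207.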
